A study of Mus musculus with 6 samples.

Results

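Notch receptors, their ligands and their target genes were examined in mouse cortical bone treated with parathyroid hormone (PTH). The members were *Notch1*, *Notch2*, *Notch3*, *Notch4*, *Jag1*, *Jag2*, *Dll1*, *Hes1*, *Hey1* and *Heyl*, taken by gene symbol from the array table with all of their probes. This gave 12 probes for 10 genes, of 45281 probes and 31508 gene symbols on the array.

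The material was cortical bone tubes, the shafts of tibia and femur from C57BL6 mice, with the marrow flushed out and surface cells digested away by collagenase and trypsin. Per the labels the mice were 3 months old, while the methods describe mice of 2 to 3 months. After a night in culture the tubes were kept for 24 hours either untreated (control) or with PTH 1-34 at 250 nM, and the labels name no transgene or deletion in either group. RNA from the bones of 4 to 5 mice was pooled for each preparation, and 3 control and 3 PTH preparations were each hybridized to 1 Illumina bead array. Nothing in the labels states that the preparations of a group were cultured separately, so the p-values measure only the spread between these arrays.

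Notch receptors are membrane proteins that are activated by ligands of the Jagged and Delta-like families on neighbouring cells. Ligand binding allows ADAM proteases and then γ-secretase to cut the receptor, and the released intracellular part enters the nucleus and joins RBPJ and Mastermind proteins on DNA. The Hes and Hey genes are the classical targets and encode transcriptional repressors. In bone, Notch signaling is known to restrain osteoblast differentiation and to act in osteocytes, and *Jag1* is known as a PTH-responsive ligand of cultured osteoblasts. The comparison of PTH with control arrays asks whether mRNA of these genes differed after 24 hours of hormone.

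No Notch member passed the test. Of the 8 members that could be tested, 0 were called higher or lower with PTH at a limma adjusted p under 0.05, against 1.73% of all 11979 genes tested (82, or 0.685%, higher and 125, or 1.04%, lower). At an unadjusted p under 0.05 the count was again 0 of 8, where 14.9% of all genes fell under that limit. The control and PTH arrays overlapped for all 8 tested members, whereas the groups did not overlap for 21.9% of all genes. The differences (PTH minus control, log2) lay between -0.16 for *Notch3* and 0.16 for *Notch4* with a median of -0.12, while the median of all genes was 0.0053. They were below 0 for 6 of 8 members and for 49.2% of all genes.

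The intervals of these differences set what could have gone unseen. For 6 members (*Notch3*, *Notch4*, *Jag1*, *Hes1*, *Hey1* and *Heyl*) the 95% interval of the limma fit lay within a 1.5-fold change in both directions. For *Notch3* and *Heyl*, with signals close to background, an offset added before the log2 step understates fold changes. Their intervals therefore do not bound the fold change of the transcript. For *Notch1* and *Dll1* it reached past 1.5-fold. With 3 arrays a group, a change of 1.5-fold would not have been called for any of the 8 members. A call would have needed a 1.54-fold difference for *Hey1*, the member with the smallest spread, and a 2.81-fold difference for *Dll1*, the member with the largest. These intervals are for each probe alone and are not adjusted for the number of members.

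Detection was taken from the p-value that the array software gives for each probe against the negative controls of its array, and a probe with a detection p under 0.05 was counted as above background. *Notch1*, *Notch3*, *Jag1*, *Hes1*, *Hey1*, *Heyl* and 1 probe of *Notch4* (ILMN_1220697) were above background on all 6 arrays. *Dll1* was above background on 3 control and 2 PTH arrays. *Jag2* was above background on no array, as was the second *Notch4* probe (ILMN_1256134). Of the *Notch2* probes, ILMN_2678002 was above background on no array and ILMN_2980247 on 1 control array and no PTH array. *Notch2* and *Jag2* were therefore not tested, and no fold change is given for them. A probe that is not above background does not show that the transcript is absent, since its sequence and its place in the transcript were not examined.

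**Figure D1:**
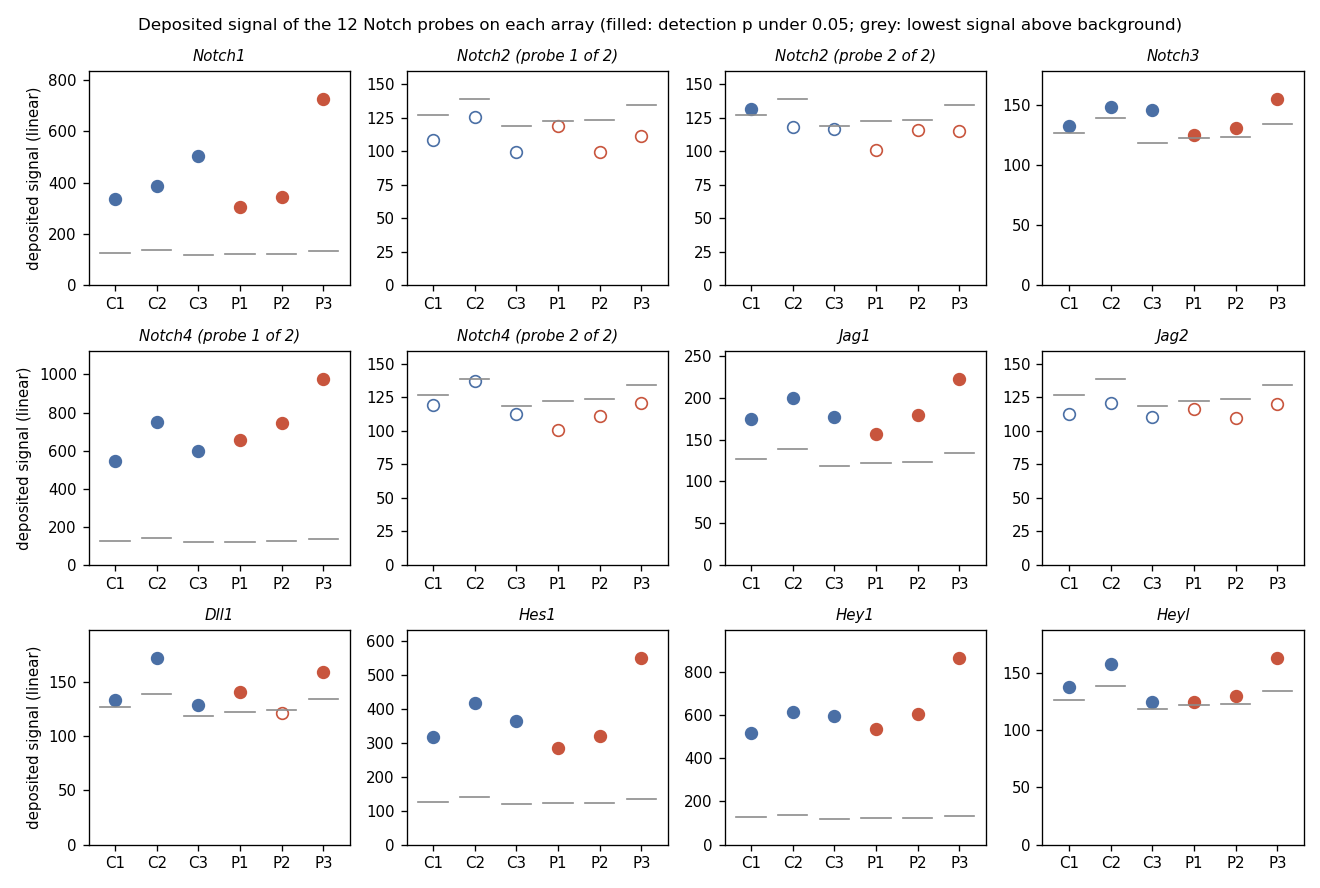
Deposited linear signal (vertical axes, each starting at 0) of the 12 Notch probes on control arrays 1 to 3 (C1 to C3, blue) and PTH arrays 1 to 3 (P1 to P3, red). Filled points are above background, hollow points are not, and the grey lines give the lowest signal above background on each array, between 119 and 139. PTH array 3 has the highest signal for 7 of the 8 tested probes, and it also has the highest median signal among probes above background on all 6 arrays.

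The deposited signals are not normalized, and the arrays differed in brightness. Among probes above background on all 6 arrays the median signal was between 246 and 298 on 5 arrays and was 371 on PTH replicate 3. The highest deposited signal of 7 of the 8 tested members was on that array. The values below are therefore given after background correction and quantile normalization, on the log2 scale. Between 34.2% and 38.4% of all probes were above background on an array, and the number of arrays limits the precision.

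Among the receptors, *Notch1*, a receptor used widely in blood, vessels and the bone lineage, had normalized log2 signals of 8.23, 8.18 and 8.69 on control arrays 1 to 3 and of 8.06, 7.97 and 8.81 on PTH arrays 1 to 3. In both groups the array numbered 3 was the highest, and the PTH arrays lay on both sides of the control arrays. The mean was 8.37 ± 0.28 (SD, n = 3) in control and 8.28 ± 0.46 (SD, n = 3) with PTH, a difference of -0.09 (SE 0.25, 95% interval -0.67 to 0.49, limma adjusted p = 0.913). Its residual SD of 0.382 was exceeded by only 11.7% of tested probes, and the sign of its difference was not stable. Leaving out single arrays gave differences from -0.35 without PTH replicate 3 to 0.07 without control replicate 3.

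*Notch4*, the receptor known mainly from endothelial cells, had the highest difference among the members. Its tested probe, on arrays 1 to 3 of each group, measured 9.17, 9.37 and 9.02 in the control tubes and 9.44, 9.30 and 9.29 in the PTH tubes. The PTH values lay in the upper part of the control range, with PTH replicate 1 above all control arrays and the other two below control replicate 2. The difference was 0.16 (SE 0.14, 95% interval -0.16 to 0.47, limma adjusted p = 0.671), a 1.11-fold ratio whose interval reached 1.39-fold. Its second probe cannot be set beside this value, because it was above background on no array.

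*Notch3*, the receptor known mainly from vascular smooth muscle and pericytes, had the lowest difference. The control arrays measured 5.36, 5.40 and 5.79 and the PTH arrays 5.28, 5.34 and 5.44. Control replicate 3 stood above the other 5 arrays, which lay within a narrow range. The difference was -0.16 (SE 0.15, 95% interval -0.51 to 0.19, limma adjusted p = 0.693), and without control replicate 3 it was -0.02. The deposited signals of *Notch3*, from 125 to 155, were close to the lowest signal above background on each array, and at such levels the offset added before the log2 step understates a fold change.

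*Notch2*, the receptor in which inherited truncations cause a human disorder of bone loss, was measured at background level. The deposited signals of its probe ILMN_2980247 were 131, 118 and 117 in the control tubes and 101, 116 and 115 in the PTH tubes, and only that of control replicate 1 was above background. The signals of ILMN_2678002 were between 99.1 and 125 on the 6 arrays.

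**Figure D2:**
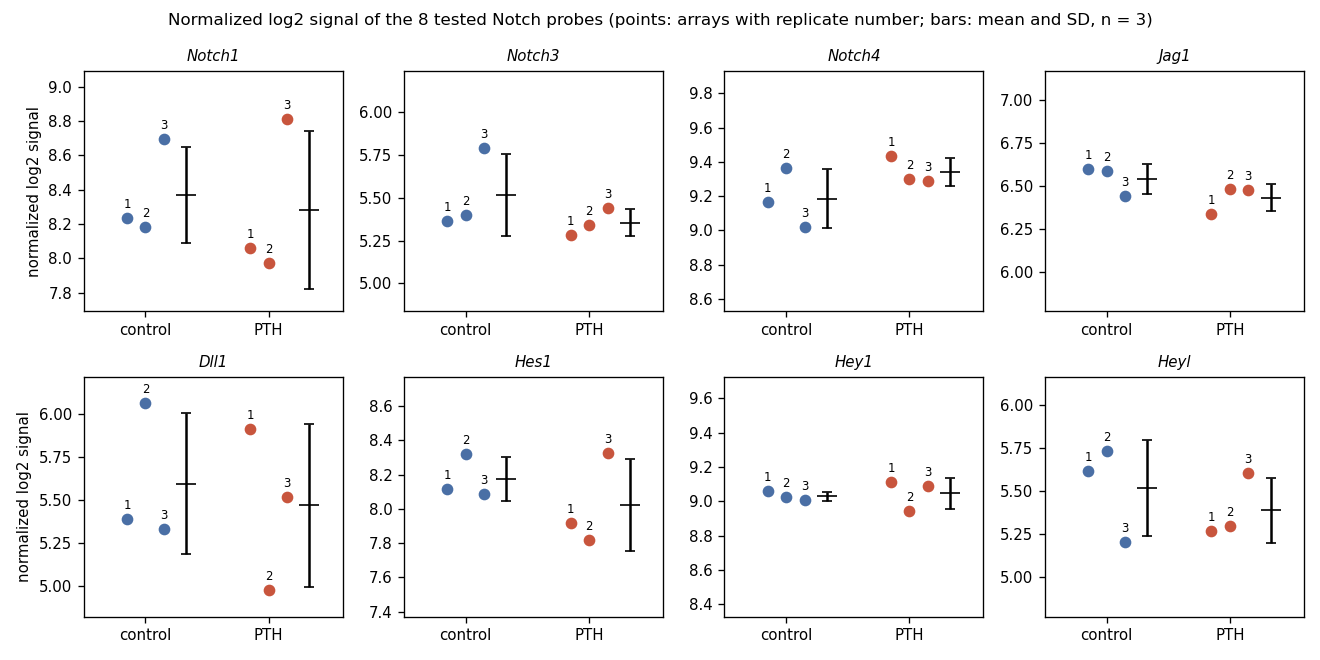
Normalized log2 signal of the 8 tested Notch probes in control (blue) and PTH (red) bone tubes, with the replicate number beside each point and the mean and SD of 3 arrays as black bars; every vertical axis spans the same log2 range, but levels are not comparable between probes. The groups overlap in every panel, and *Notch1* and *Dll1* have the widest spread.

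Of the ligands, *Jag1*, which encodes Jagged1, was among the more evenly measured members. It had log2 signals of 6.60, 6.59 and 6.44 in the control tubes and of 6.34, 6.48 and 6.48 in the PTH tubes. Only control replicate 3 lay within the range of the PTH arrays, and the other two control arrays lay above all of them. The mean was 6.54 ± 0.09 (SD, n = 3) in control and 6.43 ± 0.08 (SD, n = 3) with PTH, a difference of -0.11 (SE 0.12, limma adjusted p = 0.740). The 95% interval ran from -0.39 to 0.17, or from a 0.763-fold to a 1.13-fold level. A larger residual SD than that of *Jag1*, 0.0847, was found for 91.7% of tested probes. The difference stayed below 0 under every setting tried, between -0.16 and -0.01, and no setting called it.

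*Dll1*, which encodes a Delta-like ligand, had the widest spread of the members. The control arrays measured 5.39, 6.07 and 5.33 and the PTH arrays 5.91, 4.97 and 5.52. Control replicate 2 was the highest, and PTH replicate 2, the array on which the probe was not above background, was the lowest. The difference was -0.13 (SE 0.28, 95% interval -0.78 to 0.52, limma adjusted p = 0.886), and it was 0.11 without control replicate 2 and 0.12 without PTH replicate 2. *Jag2*, which encodes Jagged2, had deposited signals between 109 and 121 on the 6 arrays, with none above background.

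Of the target genes, *Hes1*, a repressor that Notch induces in many tissues, had log2 signals of 8.12, 8.32 and 8.09 on the control arrays. On the PTH arrays it measured 7.92, 7.82 and 8.33. PTH replicates 1 and 2 lay below every control array, while PTH replicate 3 was the highest of all 6. The difference was -0.15 (SE 0.17, 95% interval -0.54 to 0.23, limma adjusted p = 0.738). Without PTH replicate 3 it was -0.30, with a limma adjusted p of 0.384, the lowest that any setting gave for this gene.

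*Hey1*, a repressor known to act on osteoblast differentiation, was the most evenly measured member. The control arrays measured 9.06, 9.02 and 9.01 and the PTH arrays 9.11, 8.94 and 9.09. The control range lay inside the PTH range. The difference was 0.02 (SE 0.12, 95% interval -0.26 to 0.29, limma adjusted p = 0.967), which in folds runs from 0.838 to 1.22. For 95.7% of tested probes the residual SD was larger than that of *Hey1*, 0.0673.

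*Heyl*, the related repressor known from vascular smooth muscle, had log2 signals of 5.62, 5.73 and 5.20 in the control tubes and of 5.27, 5.29 and 5.61 in the PTH tubes. Control replicate 3 was the lowest array and control replicate 2 the highest. The difference was -0.13 (SE 0.18, 95% interval -0.54 to 0.28, limma adjusted p = 0.800). As for *Notch3*, the deposited signals were low, between 125 and 163.

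**Figure D3:**
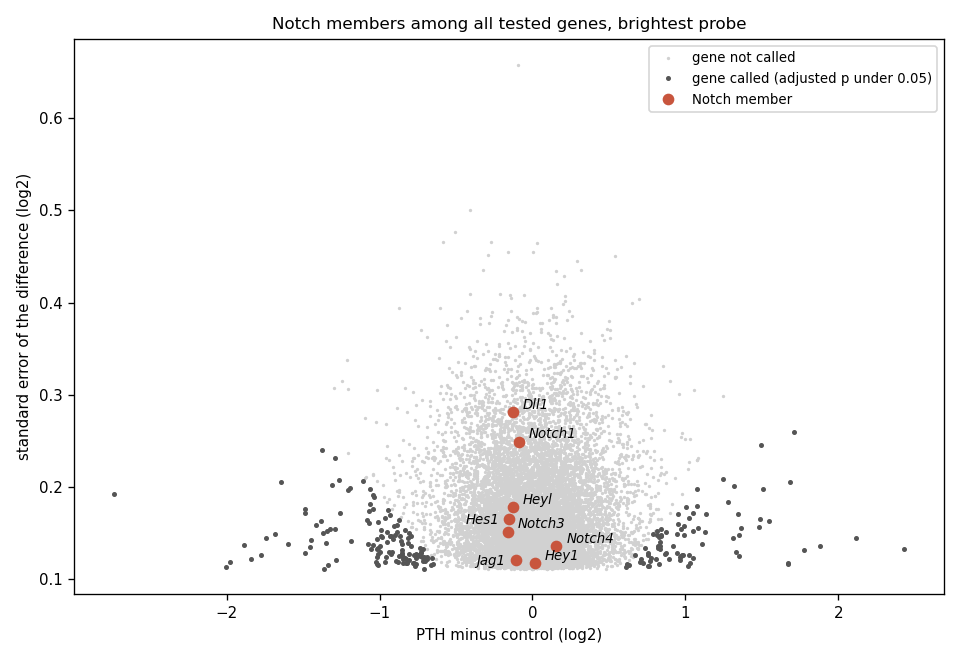
Difference of PTH and control (horizontal axis, log2) against its standard error (vertical axis, log2) for the brightest tested probe of 11979 genes, with called genes in dark grey and the 8 tested Notch members in red. All members lie between -0.16 and 0.16, inside the band of genes that were not called, and the smallest difference of a called gene was 0.61 in size.

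The other genes of the pathway were taken from a list of 61 genes (further ligands, enzymes that add sugars to Notch, proteases, nuclear partners, regulators of trafficking and turnover, and further targets). Of these, 58 were matched to a symbol on the array and 37 were tested. At a limma adjusted p under 0.05, 0 of 37 were called. At an unadjusted p under 0.05, 8 of 37 (21.6%) were found, beside 14.9% of all genes. Of the 37, 1 was higher and 7 were lower with PTH, beside 7.51% and 7.39% of all genes in those directions. The median difference of the list was -0.14, with 23 of 37 genes below 0, and its lowest adjusted p was 0.0805 (limma).

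That lowest p belonged to *Neurl1a*, listed on the array as *Neurl*, which encodes a ubiquitin ligase known to act on Notch ligands. It measured 7.46, 7.37 and 7.26 in the control tubes and 6.65, 6.88 and 6.34 in the PTH tubes. The highest PTH value lay under the lowest control value. The difference was -0.74 (SE 0.16, 95% interval -1.11 to -0.36), a 0.600-fold level, and did not pass the limma adjusted p limit as fitted here. It did pass under 4 other settings, with a limma adjusted p of 0.0142 by quantile normalization without background correction, 0.0246 with an offset of 50, 0.0307 among probes with a detection p under 0.01 on all 6 arrays, and 0.0225 with a mean-variance trend. A second probe of the gene was above background on no array.

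*Rfng*, one of the Fringe enzymes that extend sugars on Notch, measured 5.49, 5.58 and 5.48 in the control tubes and 4.87, 5.21 and 4.96 in the PTH tubes. The groups did not overlap, but only 1 PTH array was above background, and the difference of -0.51 (SE 0.13) had a limma adjusted p of 0.132. Of its relatives, *Lfng* was above background on no array, and *Mfng*, named for completeness after its values were seen, differed by 0.23 (SE 0.23, limma adjusted p = 0.718). The difference of *Nedd4*, a ubiquitin ligase with Notch among its substrates, was -0.38 (SE 0.12, limma adjusted p = 0.198).

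Of the proteases, *Ncstn*, the nicastrin subunit of γ-secretase, differed by -0.36 (SE 0.14, limma adjusted p = 0.287) by its brightest probe and by -0.21 by its other tested probe. *Adam10*, the protease that makes the first cut after ligand binding, differed by -0.03 (SE 0.14, limma adjusted p = 0.953). That *Adam10* probe was above background on only 2 control and 2 PTH arrays. Its deposited signals were low, from 120 to 145, where the offset understates a fold change. A second *Adam10* probe was above background on no array. Neither gene passed the test.

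Of the nuclear partners, *Ep300*, a histone acetyltransferase recruited by the Notch complex, measured 9.09, 8.70 and 8.88 in the control tubes and 8.60, 8.26 and 8.48 in the PTH tubes. The groups did not overlap, and the difference was -0.44 (SE 0.16, limma adjusted p = 0.242). *Rbpj*, the DNA-binding partner of Notch, was listed as *Rbpsuh* with 3 probes, of which 1 was above background on 1 control array and the others on none. It was not tested.

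Further targets and ligands gave little that could be tested. *Hes6*, a Hes family member known to oppose *Hes1*, was by brightest probe the only gene of the list higher with PTH at an unadjusted p under 0.05. Its 3 tested probes differed by 0.32, 0.47 and 0.09, with limma adjusted p-values of 0.301, 0.385 and 0.913, so none passed. *Nrarp*, a feedback inhibitor that Notch induces, differed by -0.14 (SE 0.25, limma adjusted p = 0.855). *Hes5*, *Hey2* and the endothelial ligand *Dll4* were each above background on at most 1 array of a group by any probe and were not tested.

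**Figure D4:**
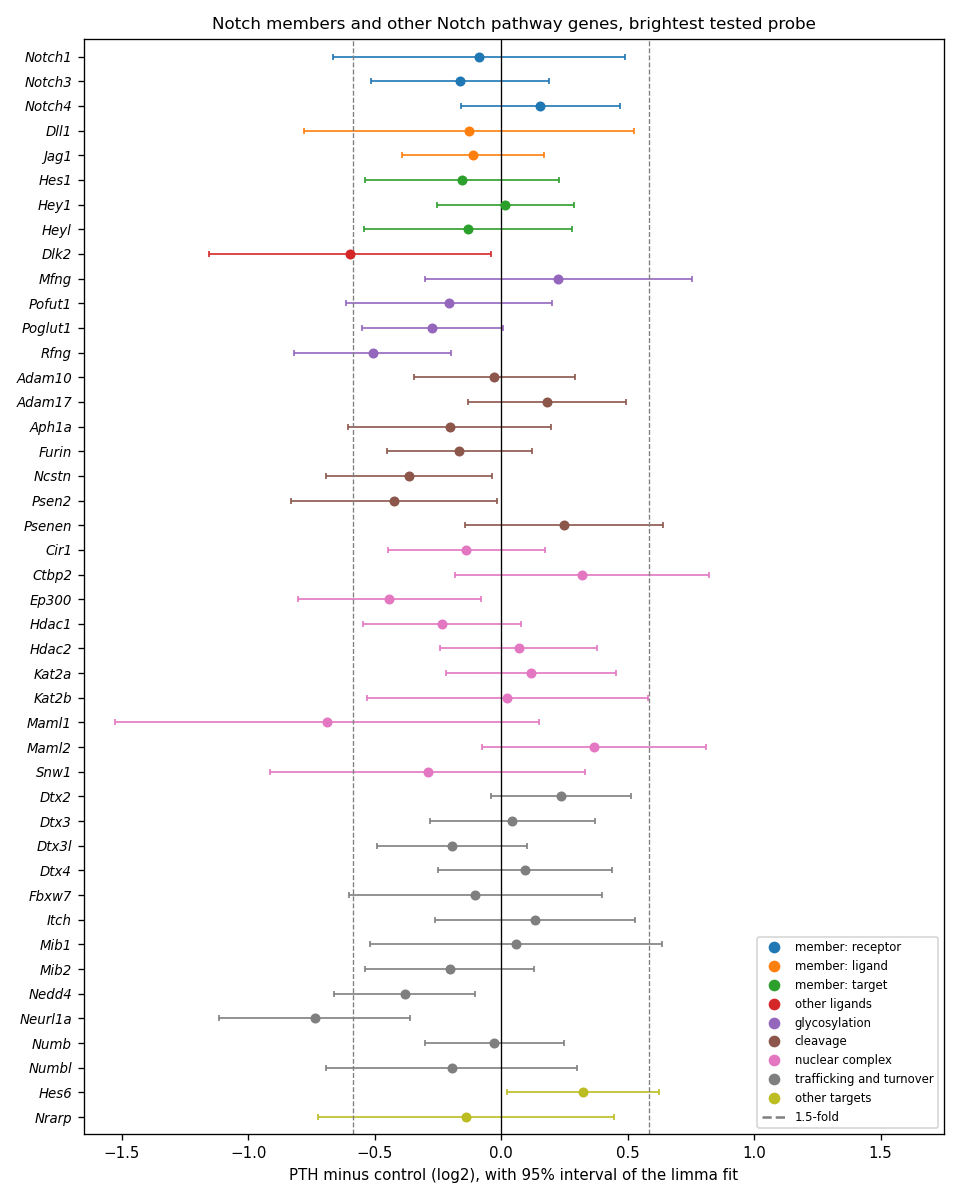
Difference of PTH and control (horizontal axis, log2) with its 95% interval for the 8 tested Notch members and the other tested pathway genes (1 of the 37 is not shown), by brightest tested probe and coloured by role; dashed lines mark 1.5-fold. The intervals of all members include 0, and *Neurl1a* has the lowest value at -0.74.

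Bone tubes hold several cell types that use Notch, and in bulk RNA fewer cells of a type and less RNA per cell cannot be told apart. Markers of these types were read as the summed normalized linear signal of their tested genes, with the offset included. All 10 endothelial markers were tested (*Pecam1*, *Cdh5*, *Kdr* and *Emcn* among them), 0 were called, and their sum was 2840 to 3036 in control and 2872 to 3060 with PTH. Of 10 mural cell markers 8 were tested and 0 were called (*Pdgfrb* and *Acta2* were tested, *Myh11* and *Cnn1* were above background on no array), with sums of 5897 to 6373 in control and 5353 to 5615 with PTH. At an unadjusted p under 0.05 the counts were 2 of 10 (1 higher and 1 lower) and 4 of 8 (1 higher and 3 lower), beside 14.9% of all genes. The sums of the groups overlapped for endothelium and did not for mural cells. *Acta2* alone, with a limma adjusted p of 0.698, made up 81% to 83.8% of the mural sum, and without it the sums were 964 to 1164 in control and 878 to 952 with PTH.

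The labelled cells of the tissue, osteocytes, were read from a list of 12 osteocyte and osteoblast markers. Of these 11 were matched to a symbol on the array and 10 were tested, with *Dmp1*, *Mepe* and *Sost* among them. *Runx2*, a regulator of the lineage, was above background on no array. *Bglap* was not matched to a symbol, although the paper lists it among genes lowered by PTH in these tubes. Of the 10 tested, 3 were called lower with PTH (*Mepe*, *Ibsp* and *Sp7*). *Dmp1* and *Sost* were lower but not called. *Pdpn* went the other way, with a difference of 0.70 (limma adjusted p = 0.056), and was not called. The differences were below 0 for 8 of the 10 and above 0 for 2. At an unadjusted p under 0.05, 1 of the 10 was higher and 8 were lower, beside 7.51% and 7.39% of all genes. The sum of the 10 was 61209 to 67490 in control and 50209 to 54010 with PTH. Without the marker of the largest signal the sums were 32429 to 34737 and 20390 to 22221. Of the other lists, neutrophil (5 lower of 8 tested), red cell (2 lower of 2), cartilage (1 lower of 6), osteoclast (3 higher of 5) and B lymphocyte markers (1 higher of 4) had called genes. Over all genes, 1.04% were called lower and 0.685% higher. Macrophage (8 tested), T lymphocyte (2) and skeletal muscle markers (1) had 0. At an unadjusted p under 0.05 those 3 lists had 4 (1 higher and 3 lower), 0 and 0. The defining T lymphocyte genes *Cd3d* and *Cd3g* were above background on no array. The part of these shifts in the values of the Notch members was not tested.

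The genes whose 6 values most resembled a member's, each gene centred on its own mean, were taken as those with the smallest root-mean-square distance over the 6 arrays. For *Notch4* they were 2210415M20Rik (distance 0.0215 on the log2 scale), *Nup88* (0.0267) and *Pgm2* (0.033). For *Notch3* they were *Fah* (0.0231), LOC382004 (0.0543) and *Nfatc3* (0.0564). For *Notch1*, added after its values were seen, they were *Gng11* (0.0452), LOC269251 (0.0727) and *Timm13a* (0.0755). Each of these had its highest value in both groups on the arrays numbered 3, as *Notch1* did, which follows from the choice by likeness. None of the 9 genes passed the limma test of PTH against control. This follows from how they were picked, since they resemble members with small differences. With 6 arrays and 11979 genes such likeness is a description.

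**Figure D5:**
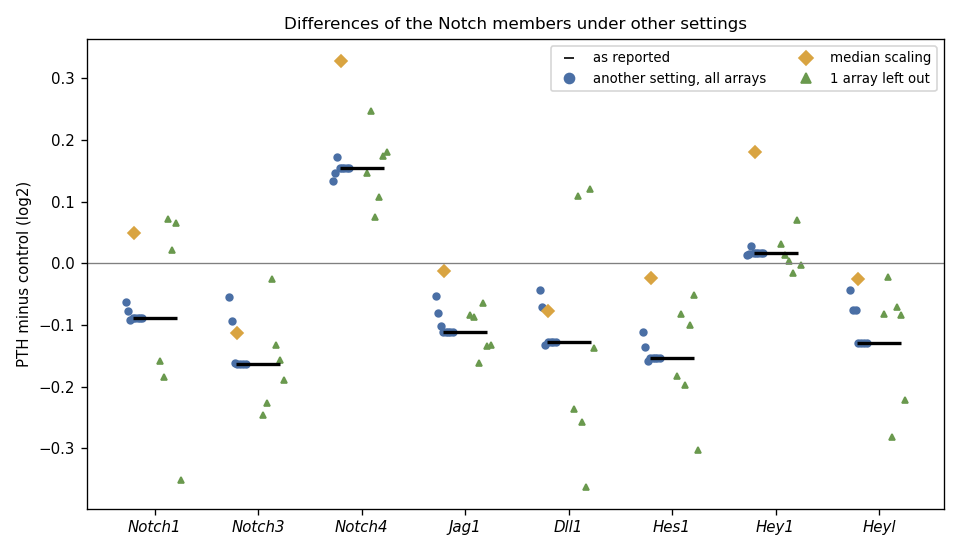
Difference of PTH and control (vertical axis, log2) of the 8 tested members as reported (black line), under other settings with all arrays (blue points, median scaling as yellow diamonds) and with 1 array left out (green triangles). *Notch1*, *Dll1* and *Hey1* fall on both sides of 0, *Notch4* stays above 0 and the other 4 stay below 0, before the shift of 0.12 in all genes under median scaling is taken off.

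Across 117 recomputed differences of the members, 0 were called. The sign was kept in 109 and turned in 8, all of them for *Notch1*, *Dll1* and *Hey1*. Some of the 109 could not have turned. Changing the detection filter or the variance model left each difference at its reported value. So did adding the replicate block or a term for the array number. These settings could alter only the p-values, and their kept signs say nothing about stability. Scaling the arrays by their medians moved the median of all genes to 0.12, and relative to that shift the difference was 0.21 for *Notch4*, 0.06 for *Hey1*, -0.07 for *Notch1*, -0.13 for *Jag1*, -0.23 for *Notch3* and between -0.19 and -0.14 for *Dll1*, *Hes1* and *Heyl*.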

How the data were processed

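Per the labels, RNA from pooled cortical bone tubes was hybridized to Illumina bead arrays, 3 control and 3 PTH. The authors deposited a linear intensity of each probe on each array, neither normalized nor background corrected, with a detection p-value from GenomeStudio (version not given in the sources used here). All per-sample columns were used. The authors' own quantile-normalized values and differential scores were not used here.

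From the deposited values, normexp background correction (fitted by the detection p-values), an added offset of 16 and quantile normalization (neqc) were computed with limma 3.58.1 in R 4.3.3, and values were taken to log2. Low signals are compressed by the offset. Probes with a detection p under 0.05 on at least 3 of 6 arrays were tested (16214 probes) with lmFit and eBayes, PTH against control, without covariates, with Benjamini-Hochberg adjustment over all tested probes. A gene was counted by its brightest tested probe and called at an adjusted p under 0.05. The procedure was tested on simulated data. No exact permutation test was run, because 3 arrays against 3 allow no p below 0.1.

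The members and gene lists were chosen with earlier results of these data known. The text names all members, of the other pathway genes any called and otherwise the 6 with the smallest unadjusted p, a set of genes (*Dll4*, *Rbpj*, *Lfng*, *Nrarp*, *Hes5*, *Hey2*, *Adam10* and 1 that is not reported here), at most 4 markers of a cell type, and the 3 genes nearest in pattern to the members with the largest rise and fall. For osteocytes and osteoblasts the called markers, *Pdpn* and the unmatched *Bglap* are named in addition. Symbols are those of the array, with older names matched through RefSeq. The alternatives were other background corrections, scalings, detection filters, probe rules and variance models, the replicate block, and each array left out. Probe sequences were not used here, and a slide effect was not examined because no slide is named.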

Additional observations from a re-analysis of the deposited data

How the results depend on the processing

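The count of Notch members called was 0 under every alternative tried, and so was the count at an unadjusted p under 0.05. Over all genes, 207 were called as reported, 589 by quantile normalization without background correction, 402 with an offset of 50, 104 by median scaling (60.6% of them higher with PTH, against 39.6% as reported), 340 with a detection p under 0.01 on all 6 arrays, 589 with a mean-variance trend, and 48 to 78 when single arrays were left out. Cyclic loess (232), no detection filter (158), the mean of a gene's probes (270) and a term for the arrays numbered 3 (185), the last added after the data were seen, moved that count by less than 1.5 times. Of the other pathway genes, 1 (*Neurl1a*) was called by quantile normalization without background correction, with an offset of 50, with a detection p under 0.01 on all 6 arrays and with the trend, and 0 under the other settings. The difference of *Notch1* turned to 0.0487 under median scaling, which moved the median of all genes by more than this. Without single arrays it ranged from -0.351 to 0.0723 for *Notch1*, from -0.3629 to 0.1205 for *Dll1* and from -0.0152 to 0.07 for *Hey1*.

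The arrays share replicate numbers across groups, but the numbers are not shown to pair them. The deviations of same-numbered arrays correlated at 0.067, 0.0636 and 0.2726, and control replicates 1 and 2 each correlated best with another number. With the replicate number as a block 44 genes were called, 0 members and 0 other pathway genes among them. Low signal over background limits *Notch3*, *Dll1* and *Heyl*, and leaves *Notch2* and *Jag2* untested.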
